A study of Mus musculus with 6 samples.

Results

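miR-22 is a microRNA (miRNA), a short regulatory RNA cut from a hairpin precursor, and by its mean share it was the most abundant miRNA of these heart libraries. Its members are the entries named Mir22 in the count tables. They are 2 of 1102 entries, 1 for the 5p arm and 1 for the 3p arm, both sense to the hairpin, and there were 0 antisense entries of that name. After entries of the same mature miRNA were added together, the arms were 2 of 993 mature miRNAs. The gene was chosen by its read counts in these same libraries, that is, for its abundance, so how high its arms stand, and at which rank, is given as a description with no test. Tests were run only on how the arms varied between hearts, which the choice did not use. The 6 small RNA libraries, numbered as in the labels and called heart 1 to heart 6, come from wild-type males of the inbred laboratory strain C57BL/6J at 18 weeks of age. They form 1 group, and no treatment, mutant allele or second group is given. The tissue label says whole heart, while the protocol in the labels describes the frozen apex of the ventricles.

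The libraries held between 3966171 and 6007325 counts, so that 3 counts, the limit that a count of 0 allows, correspond to between 0.499 and 0.756 CPM. CPM is the share of the library total multiplied by 1000000. Each pair of libraries differed by more than sampling noise. Over 15 pairs, the chi-square statistic per degree of freedom, which is near 1 when counting error alone is at work, ran from 55.0 to 298. The labels do not tie each library to a separate animal in so many words, so p-values measure only the spread between these samples, which may be technical. No molecular identifiers are described, and intervals and limits cover counting error only. The defining miRNAs of heart muscle were present, with miR-133a-3p at 89003 ± 4407 CPM and miR-208a-3p, which is made from the cardiac myosin gene Myh6, at 1227 ± 270 CPM (SD, n = 6). miR-206-3p, a marker of skeletal muscle, had 1 read in all.

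An miRNA is loaded into an Argonaute protein and pairs with messenger RNAs mainly through its seed, bases 2 to 8, which lowers their translation and stability. Usually 1 arm of the hairpin duplex is kept and the other is degraded. miR-22 is known as an miRNA of heart and skeletal muscle. In mice its loss blunts the growth of the heart under pressure or hormone load, and Sirt1 and Hdac4 are among its reported targets. No messenger RNA or protein was measured here.

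The sequences below are those of RefSeq on build GRCm38.p6 and lie at the positions that the files give for both arms. They are shown because the abundance, the arm ratio and the lack of a seed family described below concern these molecules. In the hairpin the capitals mark the mature arms, 5p first, and in the mature sequences they mark the seed.
miR-22 hairpin: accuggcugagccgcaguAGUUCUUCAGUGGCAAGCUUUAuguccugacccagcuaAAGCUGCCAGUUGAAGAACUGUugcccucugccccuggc
miR-22-3p: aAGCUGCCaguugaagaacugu
miR-22-5p: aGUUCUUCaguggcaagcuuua
The hairpin of 95 bases lies on the plus strand at chr11:75463716-75463810, with miR-22-5p at chr11:75463734-75463755 and miR-22-3p at chr11:75463772-75463793. In the GENCODE annotation of GRCm38 it lies wholly within exon 2 of both transcripts of the noncoding host gene Mir22hg. It also lies in exon 2 of 1 of 4 transcripts of Tlcd2, a noncoding transcript of a gene for a membrane protein, and in 0 coding sequences. The nearest other miRNA entry of the files was miR-3971, 87670 bases away, with 7 reads over the 6 libraries. On the other side the nearest was miR-132-3p, 289972 bases away, at 78.7 CPM. Both arms are 22 bases long and 16 bases separate them. The predicted fold of the hairpin had a free energy of -41.9 kcal/mol, and 19 bases of the 5p arm paired with the 3p arm, 8 of them in G-C pairs. Both arms begin with A.

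miR-22-3p held at least 13.997% of every library, and over the hearts it shared the first place with miR-486-5p, which muscle and red cells both make. miR-22-3p had 13.997% of the counts in heart 1, 14.4% in heart 2, 14.9% in heart 3, 16.0% in heart 4, 14.2% in heart 5 and 16.8% in heart 6, or 15.1% ± 1.11 (SD, n = 6). The highest share was 1.20 times the lowest. The exact 95% binomial intervals were narrow, for example 13.97% to 14.03% in heart 1 and 16.78% to 16.84% in heart 6, so counting error is small beside the spread between hearts. In these bulk samples, fewer cells of a type and less RNA per cell cannot be told apart.

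miR-22-3p ranked first by mean share, and first in 3 of 6 hearts. In hearts 4, 5 and 6 it was above miR-486-5p, with 16.0%, 14.2% and 16.8% for miR-22-3p against 11.4%, 12.2% and 12.9% for miR-486-5p. In hearts 1, 2 and 3 it was the second, with 13.997%, 14.4% and 14.9% for miR-22-3p against 16.5%, 16.4% and 15.8% for miR-486-5p. The reads of miR-22-3p per read of miR-486-5p ran from 0.849 in heart 1 to 1.41 in heart 4, and pooled over the hearts the ratio was 1.06. The means were 15.1% ± 1.11 for miR-22-3p and 14.2% ± 2.29 for miR-486-5p (SD, n = 6 each). These neighbours in the order do not differ beyond their spread. Which of them leads rests on how miR-486-5p is counted. Its reads are booked on 2 entries, sense and antisense to Mir486, where hairpins are annotated on both strands, and they were summed. How reads that match both strands were booked is not stated, so the sum may count some reads more than once. Taken alone, the larger of these entries held between 5.92% and 9.13%, and the share of miR-22-3p was 1.53 to 2.70 times that entry. With the entries apart miR-22-3p was first in 6 of 6 hearts. Red-cell miRNAs (miR-451a and miR-144-3p) summed to 0.569%, 0.501% and 0.362% of hearts 1, 2 and 3 and to 0.218%, 0.399% and 0.240% of hearts 4, 5 and 6. Their part in the order of miR-22-3p and miR-486-5p was not tested.

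**Figure D1:**
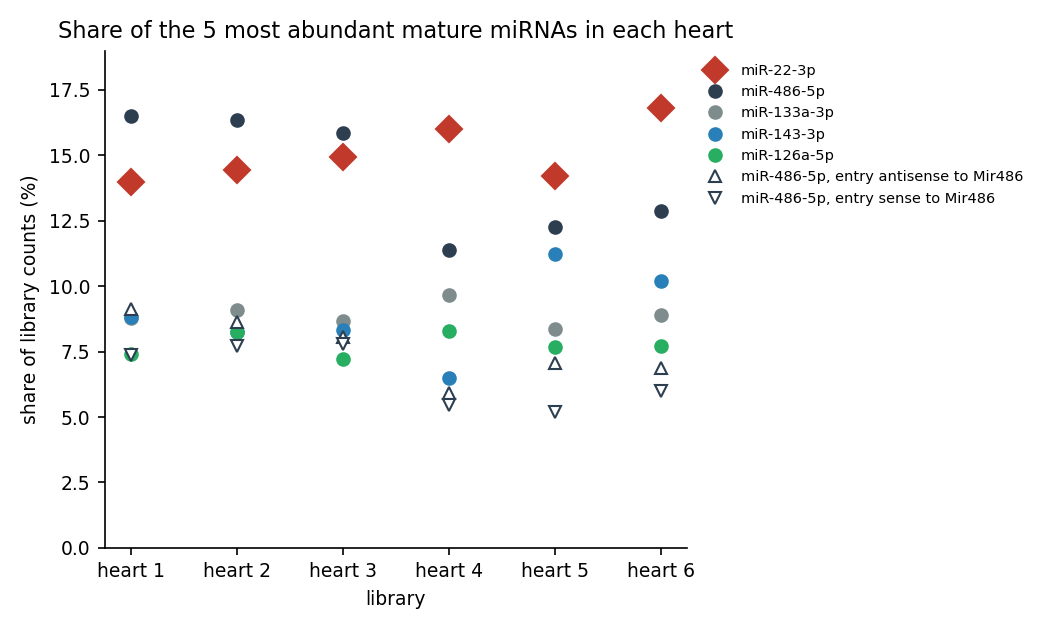
Share of library counts (%) for the 5 mature miRNAs with the highest mean share in each of 6 hearts, with miR-22-3p as diamonds and the 2 entries of miR-486-5p as open triangles. miR-22-3p lies below summed miR-486-5p in hearts 1 to 3 and above it in hearts 4 to 6, and above each separate miR-486-5p entry in 6 of 6 hearts.

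The other leading miRNAs lay below miR-22-3p in each of the 6 hearts. Reads of miR-22-3p were 1.65 times those of miR-143-3p, known from smooth muscle, and this ratio ran from 1.26 in heart 5 to 2.47 in heart 4. For miR-133a-3p, a regulator of heart muscle growth, the ratio was 1.70 and steadier, from 1.59 to 1.89. It was 1.94 for miR-126a-5p, an endothelial miRNA, and 2.62 for miR-30a-5p, a member of a broadly expressed family. The ratio was 3.79 for miR-26a-5p, 4.18 for miR-27b-3p, 4.96 for miR-378a-3p from the metabolic gene Ppargc1b, and 6.92 for miR-10a-5p, the tenth in rank. Among other muscle miRNAs, miR-22-3p had 19.6 reads per read of miR-1a-3p, 125.0 per read of miR-208a-3p, and 135 per read of miR-499-5p, which is encoded in the myosin gene Myh7b. Ligation of adapters depends on the ends of an RNA, and so ratios between different miRNAs are ratios of reads and not of molecules.

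miR-22-3p reached this share without a seed family. None of the other mature miRNAs with a sequence (991 in all) shared its bases 2 to 8, AGCUGCC, or its bases 2 to 7. Summed by seed, miR-22-3p alone was first of 832 seeds at 15.1%. It was followed by miR-486-5p at 14.2%, also a single miRNA, and by the miR-30 seed at 11.2% ± 0.566 over 6 mature miRNAs. Then came the seed of miR-133a-3p and miR-133b-3p at 8.94% and that of miR-143-3p at 8.90%. The seed of miR-22-5p, GUUCUUC, was likewise found in no other miRNA of the tables. Its bases 2 to 7 were shared with miR-6935-3p, which had 3 reads over the 6 libraries.
miR-6935-3p: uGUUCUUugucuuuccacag
Here the capitals mark bases 2 to 7.

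The 5p arm was rare beside the 3p arm, yet above most of the mature miRNAs listed, many of which were barely read. miR-22-5p had 447, 363, 342, 314, 405 and 353 reads in hearts 1 to 6, which is 93.9, 73.1, 80.9, 79.2, 67.4 and 63.0 CPM. Heart 1 was the highest and heart 6 the lowest, a factor of 1.49 apart, and the mean was 76.2 ± 11.0 CPM (SD, n = 6). It ranked between 126 and 146 in single hearts. By its mean it was at rank 142, with 851 of 993 mature miRNAs below it. Of the 993, only 353 averaged 10 reads or more and 211 averaged 100 reads or more. The nearest neighbours in rank did not differ from it beyond the spread. miR-208a-5p, the rarer arm of the myosin miRNA miR-208a, stood at 76.6 ± 7.97 CPM and was above miR-22-5p in 3 of 6 hearts. miR-345-5p stood at 74.2 ± 10.8 CPM and was above it in 1 of 6.

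**Figure D2:**
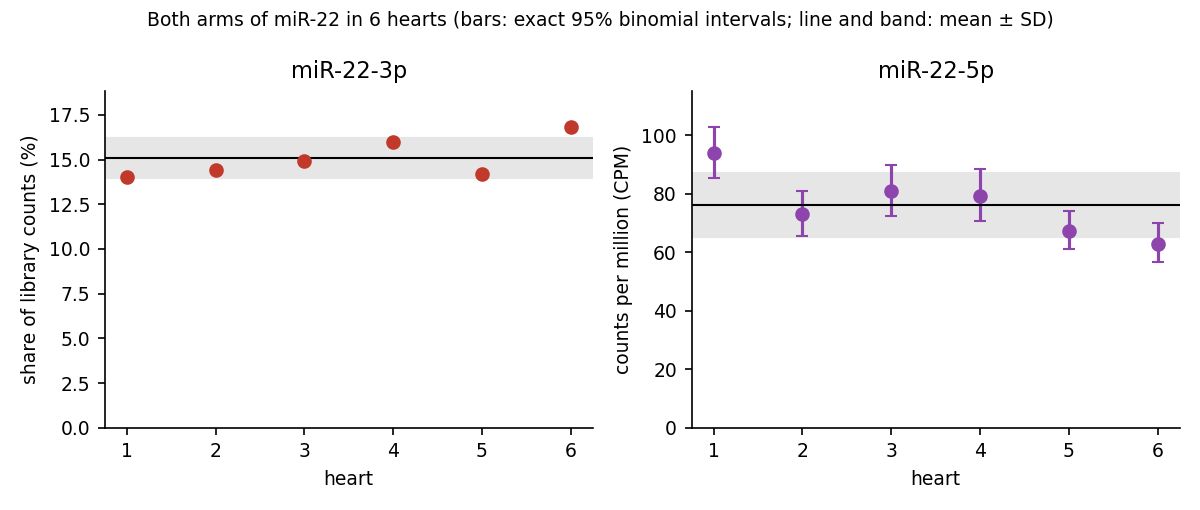
miR-22-3p as a share of library counts (%) and miR-22-5p in CPM in each of 6 hearts, both axes from 0. Bars are exact 95% binomial intervals, which are smaller than the points for miR-22-3p, and the line and band are the mean ± SD of 15.1% ± 1.11 and 76.2 ± 11.0 CPM.

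Over the 6 libraries miR-22 gave 4444529 reads of the 3p arm and 2224 of the 5p arm, or 1998 reads of 3p per read of 5p (exact binomial 95% interval 1917 to 2084). The mean of the 5p shares of the single hearts was 0.0510% ± 0.00965 (SD, n = 6) of miR-22 reads, and the share over the pooled reads was 0.05001%. Since the hairpin was chosen for the abundance of 1 arm, this ratio is a description. Over 206 hairpins with both arms listed and an average of 10 reads or more over both together, of which 93 gave more 3p and 113 more 5p reads, the median ratio of the larger to the smaller arm was 32.6. The quartiles were 5.66 and 212. Hairpins whose names differ only in a locus number, such as those of miR-30c or miR-125b, were summed and count here as 1. miR-22 was at rank 16 of the 206, and at rank 8 of the 93 with more 3p reads. Its neighbours there were miR-101b and miR-27b, with 2497 and 1795 reads of 3p per read of 5p. A hairpin with few reads cannot show so large a ratio, and several ratios above that of miR-22 rest on a handful of reads of the smaller arm, such as 7 for miR-103 and 5 for miR-101b.

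Among the 10 most abundant hairpins the ratio differed widely. It was higher than that of miR-22 for miR-26a (10028), miR-143 (4969) and miR-10a (2311). It was lower for miR-27b (1795), miR-486 (547), miR-133a (314), miR-378a (75.7), miR-30a (55.5) and miR-126a (6.42), the endothelial hairpin from which both arms are abundant. In CPM, miR-22-5p was at rank 27 among the smaller arms of the 206 hairpins, whose median was 2.69 CPM. The 10 highest of these ran from the 3p arm of miR-126a at 12135 CPM, the 5p arm of miR-151 at 2456 CPM, and the 3p arms of miR-30e (1471), miR-30a (1030), let-7d (665) and miR-145a (534) to the 5p arm of miR-199a (524), the 3p arm of miR-125b (443), and the 5p arms of miR-24 (419.5) and miR-378a (403). The sequence of each arm affects adapter ligation, so these are ratios of reads.

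**Figure D3:**
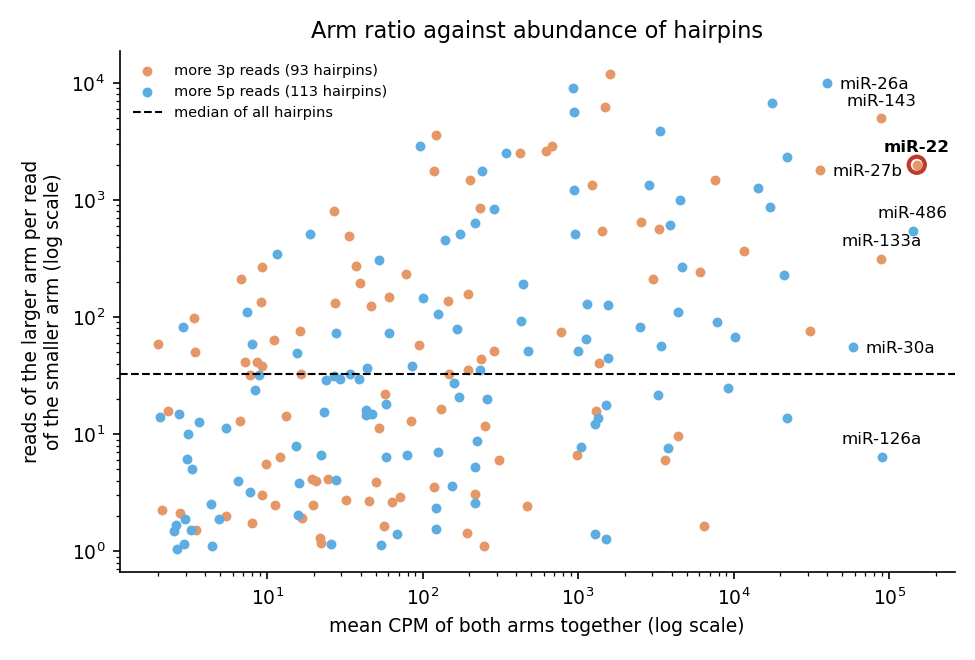
Reads of the larger arm per read of the smaller arm against the mean CPM of both arms, both on log scales, for 206 hairpins, with colour giving the larger arm and the dashed line the median of 32.6. miR-22, circled, is the farthest to the right and stands at 1998.

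The split between the arms of miR-22 was not constant over the hearts. The 5p arm gave 0.0670% of miR-22 reads in heart 1 (exact binomial 95% interval 0.0610% to 0.0735%) and 0.0375% in heart 6 (0.0337% to 0.0416%). In hearts 2, 3, 4 and 5 it gave 0.0506%, 0.0542%, 0.0494% and 0.0474%, with intervals that overlap one another and neither that of heart 1 nor that of heart 6. The highest was 1.79 times the lowest. In reads of 3p per read of 5p, heart 1 had 1491 and heart 6 had 2668. Across hearts this split, which needs no scaling and was not used to choose the gene, differed more than counting allows (chi-square test of homogeneity, statistic per degree of freedom 14.3, adjusted p = 5.78e-13, Benjamini-Hochberg over 206 hairpins). The same test called 28.6% of these hairpins, and its power grows with the number of reads. By this statistic miR-22 was at rank 16 of the 206. Of the 10 most abundant hairpins, miR-126a (261), miR-30a (114), miR-486 (101) and miR-378a (31.6) had higher values. Those of miR-143 (6.08), miR-133a (5.79), miR-27b (3.56), miR-10a (2.86) and miR-26a (1.09) were lower. Only miR-26a was not called, so a call is usual among them. The call of miR-22 rests on hearts 1 and 6. With either of them left out the statistic was 6.996 (without heart 1) or 7.99 (without heart 6) and still passed. Without both, a choice made after the values were seen, the remaining 4 hearts gave 1.15 (adjusted p = 0.561).

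The medians of the other hairpins stayed near 0 in these hearts. For 112 other hairpins whose smaller arm averaged 10 reads or more, the log2 ratio of the smaller to the larger arm was set against its own mean over the 6 hearts. The median of these deviations was 0.05 in heart 1 and 0.02 in heart 6, and lay between -0.02 and 0.05 in each of the hearts. The deviation of miR-22 was 0.41 in heart 1 and -0.42 in heart 6. In heart 1, 66 of the 112 lay above their own mean, and in heart 6, 60 of the 112. Of the 49 among them that, like miR-22, gave more 3p reads, 34 lay above their own mean in heart 1 and 21 in heart 6, with median deviations of 0.10 and -0.05. These medians had the sign of the miR-22 deviation in both hearts and were smaller in size. The sign was also shared in heart 2, at 0.02 for these hairpins and 0.01 for miR-22. In hearts 3, 4 and 5 the signs were opposite. The medians there were -0.034, 0.007 and 0.009, against 0.108, -0.023 and -0.085 for miR-22. Whether miR-22 differed from these hairpins was not tested.

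**Figure D4:**
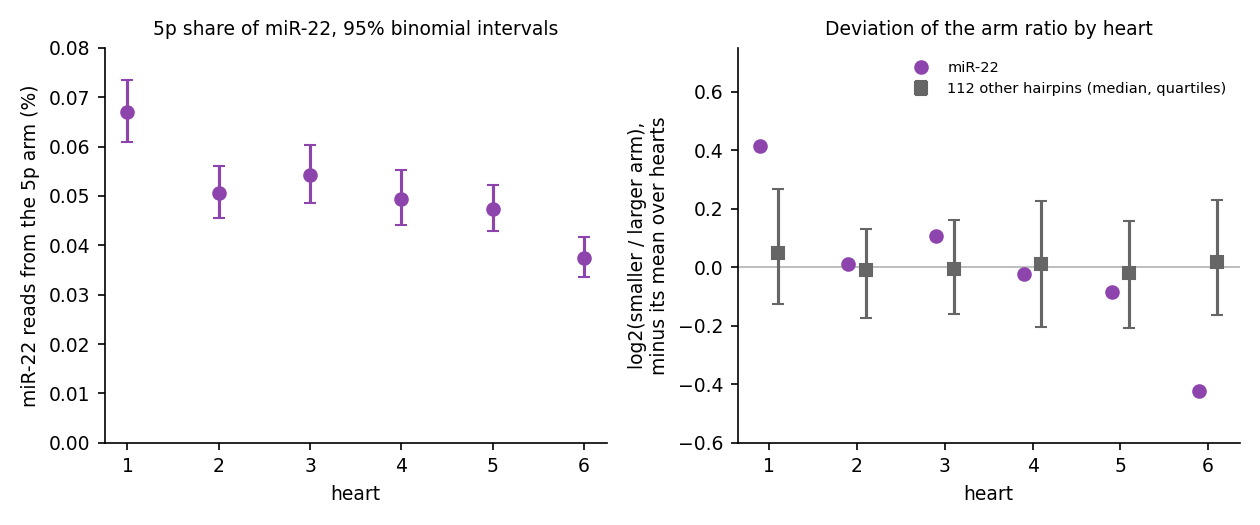
Left, share of miR-22 reads from the 5p arm (%) by heart with exact 95% binomial intervals. Right, log2 ratio of the smaller to the larger arm minus its mean over the hearts, for miR-22 (circles) and for 112 other hairpins (squares, median with quartiles), where miR-22 is at 0.41 in heart 1 and -0.42 in heart 6 while the medians lie between -0.02 and 0.05.

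Both arms varied between hearts more than counting allows. The coefficient of variation (CV, SD over mean) of the share was 7.40% for miR-22-3p and 14.4% for miR-22-5p. Counting error alone gives a CV of about 0.116% at the depth of miR-22-3p and 5.19% at that of miR-22-5p. In the chi-square test of the 6 counts against the library totals, the statistic per degree of freedom was 4300.4 for miR-22-3p and 8.18 for miR-22-5p (adjusted p = 2.48e-07 for miR-22-5p, Benjamini-Hochberg over 353 miRNAs that averaged 10 reads or more). This test called 72% of those miRNAs, so a call is usual. Among 211 miRNAs that averaged 100 reads or more the median CV was 12.3%, with quartiles of 9.27% and 18.2%. miR-22-3p was at rank 28 from the least variable and miR-22-5p at rank 124. Counting error adds more to the CV of the rarer miRNAs among the 211, so these ranks depend in part on depth. After TMM scaling, which sets libraries on a common scale by the bulk of the miRNAs, the CV of miR-22-3p was 9.51% and its rank 73. Of the 10 most abundant, miR-133a-3p (4.95%), miR-27b-3p (5.44%), miR-126a-5p (5.59%) and miR-30a-5p (5.71%) varied less than miR-22-3p, and miR-143-3p (18.7%) and miR-486-5p (16.1%) varied most.

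The miRNAs that followed miR-22-3p most closely were taken by the smallest SD over the 6 hearts of the log2 ratio of their reads to those of miR-22-3p, a measure that needs no scaling. The median of this SD was 0.21 over the 210 miRNAs compared, each averaging at least 100 reads. The smallest were miR-98-5p (0.069), miR-3102-3p (0.070), miR-181d-5p (0.071), miR-185-5p (0.080) and let-7f-5p (0.090), with miR-133a-3p next at 0.091. The ratio of miR-98-5p to miR-22-3p, for example, lay between -9.67 in heart 1 and -9.48 in heart 2 on the log2 scale. These differences are small, and counting error is part of them. miR-3102-3p and miR-185-5p averaged 142.5 and 257 reads. That is fewer than the 371 of miR-22-5p, for which counting error alone gives a CV of about 5.19%. At such depths counting error by itself can give an SD of this size, so the closeness of these miRNAs is not established. The choice is also not stable. With each heart left out in turn, miR-98-5p stayed among the closest 5 in 5 of 6 cases, miR-3102-3p and miR-181d-5p in 4, miR-185-5p in 1 and let-7f-5p in 0. Of the 5, miR-98-5p and let-7f-5p share the let-7 seed with each other, and none has the seed of miR-22-3p.
miR-98-5p: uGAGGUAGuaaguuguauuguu
let-7f-5p: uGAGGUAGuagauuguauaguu
miR-181d-5p: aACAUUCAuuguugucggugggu
miR-3102-3p: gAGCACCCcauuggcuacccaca
The capitals again mark bases 2 to 8. They lie on chromosomes X, 13, 8 and 7 in that order, where for let-7f-5p the locus is 1 of those that encode it, and so on other chromosomes than miR-22.

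miR-22-5p was not among the close ones. Its SD of the log2 ratio to miR-22-3p was 0.27, at rank 147 of 210, although both arms come from the same hairpin. Counting error is part of this value, since miR-22-5p had 314 to 447 reads per library. At this depth counting error alone gives a CV of about 5.19%, and the arm split above differed more than counting allows. The SD was 0.31 for both miR-486-5p and miR-143-3p, 0.33 for miR-208a-3p, and 0.67 for the red-cell miRNA miR-451a.

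**Figure D5:**
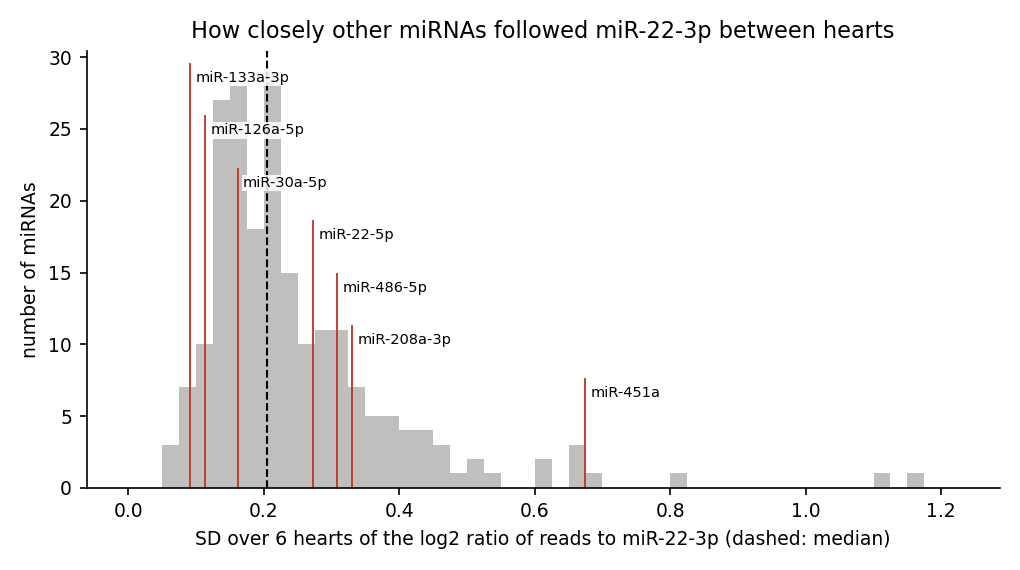
Number of miRNAs by the SD over 6 hearts of the log2 ratio of their reads to those of miR-22-3p, for 210 miRNAs averaging 100 reads or more. The dashed line is the median of 0.21, and red lines mark named miRNAs, from miR-133a-3p at 0.091 to miR-451a at 0.67, with miR-22-5p at 0.27.

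Across hearts the level of miR-22-3p showed no relation that passed the test with its other arm or with 7 lists of cell-type miRNAs. Levels were log2 CPM after TMM scaling. Over the 8 relations, 0 passed at 0.05 after Benjamini-Hochberg adjustment and 0 without it on this scale (two-sided exact permutation test of Pearson's r, n = 6, where the smallest possible p is 0.00278). For miR-22-5p the Pearson r was -0.50 (exact p = 0.261, adjusted p = 0.561) and Spearman's rho -0.37 (exact p = 0.497). When hearts 1 and 6 were dropped, whose miR-22-3p level lay farthest from the median, r was 0.83 over the remaining 4, so its direction rests on those hearts. The cardiac and skeletal muscle list, which was mostly miR-133a-3p and held 9.46% to 10.7% of the counts, gave a Pearson r of 0.72 (exact p = 0.0972, or 0.561 when adjusted). Its Spearman's rho was 0.77 (exact p = 0.103), and r was 0.78 without hearts 1 and 6. All 7 of its 7 members had reads, though miR-206-3p had only 1 over all the libraries. In heart 6 miR-22-3p deviated from its mean over hearts by 0.24 in log2 CPM. There miR-1a-3p, miR-133a-3p and miR-499-5p deviated by 0.24, 0.08 and 0.04. In the same heart miR-208a-3p, miR-133b-3p and miR-208b-3p deviated by -0.12, -0.20 and -0.67, so the members did not move together.

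The remaining lists also gave no call. The endothelial list (8.43% to 9.76% of the counts) had r = 0.59 with an exact p = 0.239, and the erythroid list (0.218% to 0.569%) r = -0.57 with an exact p = 0.281. With levels scaled by the library total, as for the shares above, the erythroid r was -0.92 (exact p = 0.0278, or 0.222 when adjusted). Spearman's rho was -0.89 on that scale (exact p = 0.0333). This r had the smallest p of the 8 relations there and did not pass the adjustment. It was -0.75 when hearts 4 and 6, whose share of miR-22-3p lay farthest from the median, were dropped. Over the same remaining 4 hearts and on that scale, r was -0.92 for the fibroblast and mesenchymal list. For the other lists it lay between -0.44 (smooth muscle) and 0.18 (muscle and erythroid). After TMM scaling, r for the fibroblast and mesenchymal list (1.81% to 2.51%) was -0.38 with an exact p = 0.497. For the leukocyte list (0.295% to 0.377%) it was 0.28 with an exact p = 0.597. The smooth muscle list (6.56% to 11.3%) had r = 0.18 with an exact p = 0.808, and the muscle and erythroid list of miR-486-5p and miR-486-3p (11.4% to 16.5%) had r = -0.08 with an exact p = 0.781. Scaled by the library total, r for this miR-486 list was -0.57 (exact p = 0.261). On that scale miR-22-3p and miR-486-5p are large parts of the same total, so more reads of either lower the share of the other by construction. How far this enters r was not tested. Spearman's rho for these 6 lists was 0.77, -0.54, -0.60, 0.37, -0.14 and -0.03 in that order, with exact p = 0.103, 0.297, 0.242, 0.497, 0.803 and 1. Without hearts 1 and 6 their r was 0.50, -0.20, -0.40, 0.92, -0.81 and 0.31. Adjusted p for these 6 lists ran from 0.561 to 0.808. With 6 hearts these p-values do not show that the levels were unrelated. Each list is a sum, so its r leans on its most abundant members. The smooth muscle list was mostly miR-143-3p (88965 CPM, against 745 for miR-145a-5p). In heart 6 these deviated from their means over hearts by 0.30 and -0.31 in log2 CPM. The fibroblast and mesenchymal list was mostly miR-10b-5p (17733 CPM). In heart 1 the leukocyte members miR-142a-5p and miR-146a-5p deviated by 0.43 and -0.32. These r are therefore not relations with a cell type as a whole.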

How the data were processed

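The authors deposited 1 table of raw counts for each of 6 libraries, in whole numbers, with a name, a chromosomal location and a count per entry, per the file headers. GRCm38 is the build in the submitters' processing notes, which also list DESeq and edgeR, with no role for either. How reads were aligned and counted, multi-mapping reads included, is not given in the sources used here. Libraries were made from Trizol RNA with a TruSeq small RNA kit, per the labels' protocols. Of 1102 entries, 76 were antisense to the hairpin named. Of these, 38 were assigned to a hairpin annotated on the opposite strand, and 38 were left out of totals. Entries of 1 mature name were summed, which gave 993 mature miRNAs. For arm ratios and arm splits, hairpins whose names differ only in a locus number were summed as well. Names came from RefSeq mature positions (overlap of at least 15 bases) for 833 entries, and otherwise from the files or the GENCODE hairpin. Seeds were read from RefSeq for 802 mature miRNAs and from GENCODE transcripts for the rest. Shares and CPM use each library's total. TMM factors came from edgeR 4.0.16, the alternative size factors from DESeq2 1.42.0, chi-square p-values from scipy 1.17.1, and the fold from ViennaRNA 2.7.2. Permutation p-values were computed directly over all orders of the hearts. The tests of counts and arm splits were tested on simulated data. The level of log2 CPM used a prior count of 1. With 1 group there was no contrast for a count model. miRNAs named beside both arms are the other 9 of the 10 most abundant, the 5 closest in pattern, the 10 highest smaller arms, the rank neighbours of miR-22-5p, seed sharers, the 5 leading seeds, and list members. Those outside this rule, such as the neighbours in arm ratio and in the genome and the smaller arms of leading hairpins, were chosen after their values were seen. The gene and the lists were chosen with earlier results of these data known.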

Additional observations from a re-analysis of the deposited data

How the results depend on the processing

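Of 168 alternatives to these results, 149 kept the direction and the side of the threshold, or stayed close to the value reported. With the total over sense rows alone, the mean share was 17.3% for miR-22-3p and 0.00880% for miR-22-5p, and with a total without miR-486 reads 17.6% and 0.00891%, since both totals are smaller by construction. With each locus entry kept apart, miR-22-3p was first in 6 hearts in place of 3 (a count added after seeing the data), and miR-22-5p was at rank 158 in place of 142. The arm split without hearts 1 and 6 gave a statistic of 1.15. Leaving out each heart in turn moved the mean share of miR-22-3p between 14.7% and 15.3%, its rank stayed at 1, and the share of 5p reads lay between 0.0478% and 0.0537%. The CV lay between 5.43% and 8.24% for miR-22-3p and between 10.5% and 16.1% for miR-22-5p. The statistic against counting noise ran from 1877 to 5355 for miR-22-3p and from 3.92 to 10.1 for miR-22-5p, and that of the arm split from 6.996 to 17.96.

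No alternative gave a correlation with an adjusted p under 0.05. The sign of r with the smooth muscle list turned with scaling by the total (-0.20) and ran from -0.68 to 0.51 with a heart left out. For miR-486 r was -0.57 with scaling by the total, turned sign with DESeq2 size factors (0.020) and ran from -0.31 to 0.11 with a heart left out, and r with the leukocyte list ran from -0.12 to 0.50. For the erythroid list r was -0.92 with scaling by the total (adjusted p = 0.222). With a heart left out the ranges were -0.92 to -0.16 for miR-22-5p and 0.64 to 0.85 for the muscle list. The cause was not tested. Of the 5 miRNAs closest to miR-22-3p, 2 remained with a mean of at least 1000 reads, and 0 to 3 with a heart left out (0 without heart 6). No paired analysis was possible because the samples form 1 group. Depth limits miR-22-5p and the smaller arms of rare hairpins more than miR-22-3p.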
